A study of Mus musculus with 20 samples.

Results

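The genes examined here encode the proteins of the mitochondrial ribosome. They were all genes whose platform symbol starts with Mrpl or Mrps followed by a digit, which gave 76 of the 16593 genes on the array. Of these, 68 had a mean above 0 over the arrays used and were tested, among 6455 genes tested in all. Total RNA of 5 heart regions was hybridised to Illumina MouseRef-8 arrays, 4 per region. The regions were both atria (LA on the left, RA on the right), both ventricles (LV and RV) and the sinoatrial node (SA), the tissue in which the heartbeat starts. The mice were C57/BL6 males, 5 to 10 weeks old. The labels name no transgene, and no treatment other than the anaesthesia and heparin given before dissection. Each SA sample was pooled from 3 mice. The methods state that each LV mass was cut into 3 pieces that served as samples, so some LV arrays may come from the same heart. The labels do not say that the arrays of a region were separate animals, so SDs and p-values measure only the spread between these samples. In such bulk tissue, fewer cells of a type and less RNA per cell cannot be told apart.

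The mitochondrial ribosome makes the small set of proteins encoded by mitochondrial DNA, all of which are subunits of the respiratory chain or of the ATP synthase. Its RNA comes from mitochondrial DNA, but its proteins are encoded in the nucleus, made in the cytosol and imported. Some descend from proteins of the bacterial ribosome, and the others have no bacterial counterpart and were added during evolution. Heart muscle, which beats without rest, is among the tissues richest in mitochondria.

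Values are z-scores: in every array the probes were scaled to a mean of 0 and an SD of 1. Differences are given in these units, and levels are never compared between genes. The atria (A) are the mean of LA and RA, and the ventricles (V) the mean of LV and RV. A difference was called when its adjusted p in limma was under 0.05, adjusted over the 6455 genes. LV replicate 4 stood apart: its mean rank correlation with the other arrays was -0.041, against 0.863 to 0.941 for the other 19, and the median of the 68 genes was -0.275 in it against 2.135 to 2.235 in the other LV arrays. It was left out, and counts with it are given beside the results. LV replicate 3, which was kept, held 319 probes below -1.1, a level that no probe reached in the other 19 arrays. None of the probes used for the 76 genes was among them. The study's own analysis dropped more LV arrays than were dropped here, and its methods do not name them. Without LV replicates 3 and 4, which leaves 18 arrays with 2 of LV, 53 of the 68 genes were called lower and 2 higher in A versus V, and 51 lower and 1 higher in SA versus V. The tissue labels were checked against known markers. The 5 atrial muscle markers were higher in A than in V and both tested ventricular markers were lower. The mean of the 5 atrial markers varied between ventricular arrays, from 0.67 to 2.30 in LV and from 0.54 to 1.95 in RV. It was 3.54 to 4.35 in LA and 3.98 to 4.40 in RA. The 2 tested nodal markers, Shox2 and Tbx3, were higher in SA than in RA. Isl1 was not tested because of its low mean, but lay at 0.83 to 1.38 in SA and at -0.52 to -0.33 in RA. Tbx18 was below 0 in all 19 arrays. RV replicate 2 carries a right atrial title but is an RV sample by its source and tissue labels, and the means of the ventricular markers lay between 2.20 and 2.34 in the 4 RV arrays.

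The promoters of 5 genes on which the results turn are shown first, since these genes differed most or belong to the Mrps18 family described below. The 250 bases before each start site are taken from RefSeq (GRCm38.p6), which held 73 promoters for 67 of the 76 genes. Capitals mark GCATGCGC (the core of the site of NRF1, a regulator of nuclear genes for mitochondrial proteins), CCGGAAGT (bound by ETS family factors such as GABP) and GGGCGG (bound by Sp family factors), on either strand.
Mrpl14, chr17:45686099-45686348, plus strand: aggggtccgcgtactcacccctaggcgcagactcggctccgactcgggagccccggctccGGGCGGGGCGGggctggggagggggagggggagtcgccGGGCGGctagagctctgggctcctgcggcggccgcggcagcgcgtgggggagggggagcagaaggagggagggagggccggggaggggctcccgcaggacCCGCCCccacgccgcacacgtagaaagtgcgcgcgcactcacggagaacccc
Mrps6, chr16:92058086-92058335, plus strand: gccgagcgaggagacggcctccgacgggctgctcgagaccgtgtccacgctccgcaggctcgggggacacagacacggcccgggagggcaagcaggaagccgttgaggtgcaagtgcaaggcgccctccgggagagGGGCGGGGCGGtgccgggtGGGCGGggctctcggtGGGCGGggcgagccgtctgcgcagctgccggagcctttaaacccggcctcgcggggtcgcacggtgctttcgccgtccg
Mrps18a, chr17:46110754-46111003, plus strand: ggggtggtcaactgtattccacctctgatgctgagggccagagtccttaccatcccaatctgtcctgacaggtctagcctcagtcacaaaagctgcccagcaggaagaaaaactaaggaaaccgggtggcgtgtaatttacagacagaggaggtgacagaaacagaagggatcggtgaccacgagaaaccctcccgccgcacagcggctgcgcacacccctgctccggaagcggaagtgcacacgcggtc
Mrps18b, chr17:35916441-35916690, minus strand: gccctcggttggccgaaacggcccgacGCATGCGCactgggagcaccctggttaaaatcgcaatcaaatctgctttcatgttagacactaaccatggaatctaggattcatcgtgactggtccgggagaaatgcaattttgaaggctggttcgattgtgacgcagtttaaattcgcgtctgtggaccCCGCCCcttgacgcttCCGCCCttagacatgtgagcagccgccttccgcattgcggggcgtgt
Mrps18c, chr5:100798509-100798758, plus strand: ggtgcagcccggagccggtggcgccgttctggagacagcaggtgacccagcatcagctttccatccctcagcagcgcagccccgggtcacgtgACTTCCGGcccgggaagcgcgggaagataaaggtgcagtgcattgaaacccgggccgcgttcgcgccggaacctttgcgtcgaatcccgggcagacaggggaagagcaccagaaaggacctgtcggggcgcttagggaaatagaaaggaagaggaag
The upstream window of Mrpl14 and that of Mrps6 held GGGCGG several times, that of Mrps18b the NRF1 core and GGGCGG, that of Mrps18c the ETS letters, and that of Mrps18a none of these letters. The 6 motifs searched, over 300 bases that include 50 after the start, were the full palindromic NRF1 site (which contains the core), GCATGCGC, CCGGAAGT, the YY1 site AAGATGGC, GGGCGG and TATAAA. AAGATGGC was in 16.4% of the 73 promoters, against 4.79% of the promoters of all genes tested and 2.75% of all promoters in the table. CCGGAAGT was in 16.4%, 8.60% and 3.89% in the same order, GCATGCGC in 11%, 5.61% and 2.71%, and the full NRF1 site in 4.11%, 2.06% and 0.971%. GGGCGG was in 53.4% of the 73 promoters, below the 63.2% of genes tested and above the 35.7% of all promoters. TATAAA was in 6.85%, 7.29% and 13.6%. These shares describe letters in a window and do not show binding.

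The mitochondrial ribosome genes were lower in the atria than in the ventricles. Of the 68 tested, 54 were called lower and 2 higher in A versus V, where 61.2% of all genes tested were called (34.6% higher and 26.6% lower). Their median difference was -0.22, against 0.032 over all genes tested, and 64 of the 68 differences were below 0. For 31 of them every atrial array lay below every ventricular array, and for 1, Mrps6, every atrial array lay above. Among all genes the shares that did not overlap were 11.1% lower and 15.4% higher. With LV replicate 4 included, 1 of the 68 genes was called (Mrps35, lower) and the median was 0.039, against 0.181 over all genes. Over all genes tested, 1100 were then called in place of 3951.

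**Figure D1:**
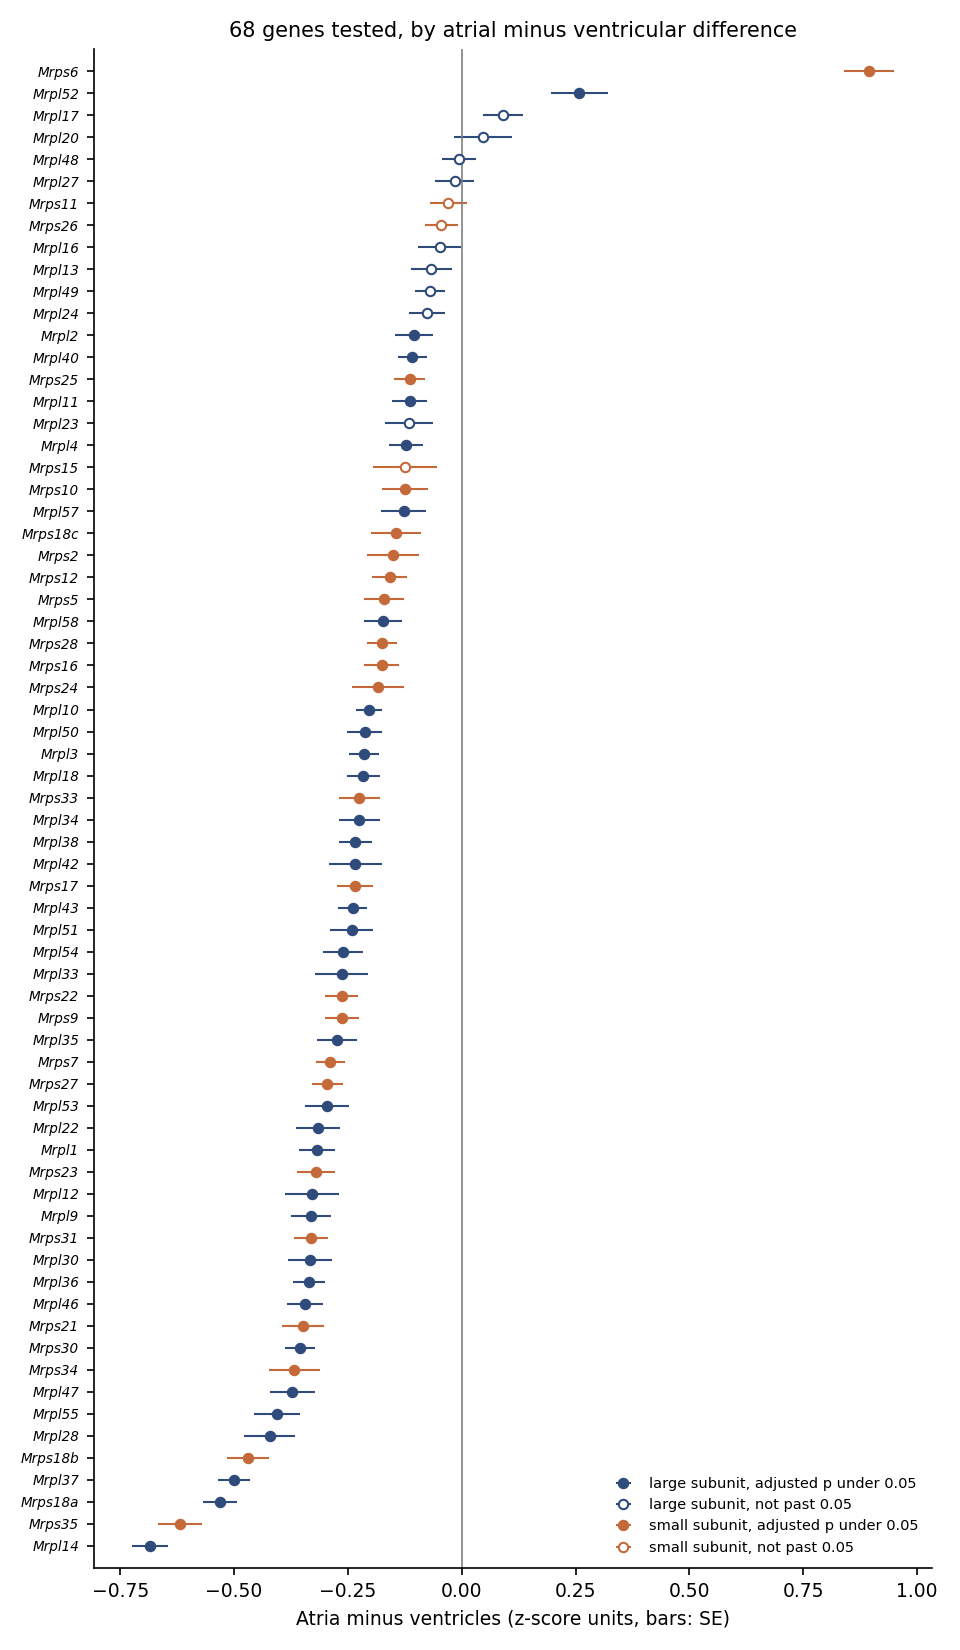
Atrial minus ventricular difference of each of the 68 genes tested, in z-score units, sorted by size. Points are limma estimates from 19 arrays with their standard errors, and filled points have an adjusted p under 0.05. All but 4 points lie left of 0, and Mrps6 stands alone on the right at 0.89.

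Mrpl14, a large subunit protein at the face that meets the small subunit, fell the most. It lay at 1.54, 1.69, 1.70 and 1.59 in the 4 LA arrays, at 1.76, 1.58, 1.60 and 1.72 in RA, at 2.45, 2.33 and 2.44 in LV and at 2.16, 2.23, 2.30 and 2.34 in RV. All atrial arrays were below all ventricular ones, and the LA and RA ranges overlapped. The difference was -0.68 ± 0.040 (SE, adjusted p = 5.56e-11), and Mrpl14 had the largest F value over the 5 regions among the 68 genes (83.0).

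Mrps35, a small subunit protein without a bacterial counterpart, lay at 1.54, 1.57, 1.65 and 1.54 in LA and at 1.51, 1.5, 1.48 and 1.53 in RA. Its values were 2.20, 2.14 and 2.13 in LV and 2.10, 2.12, 2.15 and 2.28 in RV. The atrial arrays were again all lower, and the LV and RV ranges overlapped. The difference was -0.62 ± 0.048 (adjusted p = 3.07e-09). LV replicate 4 read 3.37, above every other array, and with it included the difference was -0.77 (adjusted p = 0.0103).

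Mrpl37, of the large subunit and also without a bacterial counterpart, was measured at 1.96, 2.03, 2.15 and 1.99 in LA, 1.98, 1.89, 1.92 and 1.88 in RA, 2.54, 2.49 and 2.54 in LV and 2.44, 2.41, 2.44 and 2.42 in RV. The groups did not overlap, and the ventricular values were very close to each other. It fell by 0.50 ± 0.035 in A versus V (adjusted p = 6.42e-10). A second probe of the gene, fitted on its own, fell by 0.45 ± 0.037 (adjusted p = 7.91e-09).

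Mrpl28, a large subunit protein with a bacterial counterpart, ranged from 2.59 to 2.80 in LA and from 2.56 to 2.77 in RA, and from 3.04 to 3.21 in LV and from 3.0 to 3.20 in RV. It fell by 0.42 ± 0.056 (adjusted p = 2.87e-06). The others called lower without overlap, by size of the difference, were Mrps18a (-0.53) and Mrps18b (-0.47), described below, and then a run of genes of both subunits that reached from -0.41 for Mrpl55 to -0.175 for Mrps28.

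**Figure D2:**
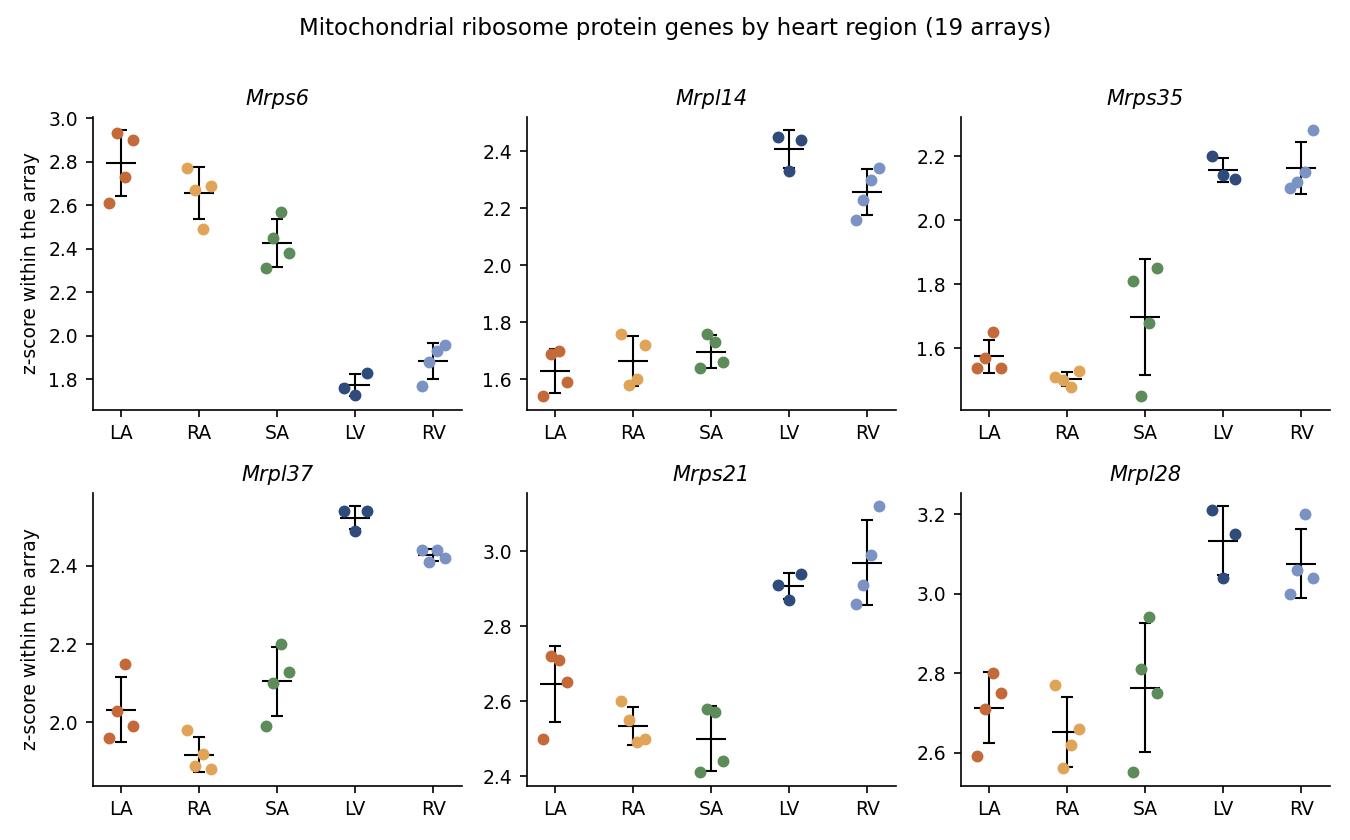
Values of 6 mitochondrial ribosome genes in each array by region (z-score, with mean and SD, n = 4 and n = 3 in LV). Mrps6 is highest in LA, RA and SA, and the other 5 are highest in LV and RV, with SA nearer to the atria.

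Mrps6 went the other way. It encodes the mitochondrial counterpart of bacterial S6, a protein of the platform of the small subunit. It lay at 2.61, 2.93, 2.73 and 2.90 in LA, 2.77, 2.67, 2.49 and 2.69 in RA and 2.31, 2.45, 2.57 and 2.38 in SA. In LV it lay at 1.76, 1.73 and 1.83 and in RV at 1.77, 1.88, 1.93 and 1.96. Every atrial and nodal array was above every ventricular array. The differences were 0.89 ± 0.055 in A versus V (adjusted p = 1.13e-10) and 0.60 ± 0.067 in SA versus V (adjusted p = 5.83e-07). No setting without LV replicate 4 ended either call. With that array, in which Mrps6 read 4.23, the A versus V difference was 0.59 (adjusted p = 0.175). In the gene table the span of Mrps6 on chromosome 16 overlaps that of Slc5a3, a myo-inositol transporter. The probe of Slc5a3, looked up after the values of Mrps6 had been seen, lay between -0.83 and -0.51 in all 19 arrays. Spans of 22 of the 68 genes overlap another gene in the table, and the position of each probe within them was not examined.

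Mrpl52, of the large subunit, was the other gene called higher in A versus V (0.26 ± 0.062, adjusted p = 0.00147). Its ranges overlapped, from 1.63 to 2.02 in LA and 1.59 to 1.81 in RA against 1.32 to 1.52 in LV and 1.5 to 1.79 in RV. The 12 tested genes not called in A versus V were Mrpl13, Mrpl16, Mrpl17, Mrpl20, Mrpl23, Mrpl24, Mrpl27, Mrpl48, Mrpl49, Mrps11, Mrps15 and Mrps26. Of these, 10 had a difference below 0. For Mrps26 the choice of probe decided the call. Its brighter probe differed by -0.045 ± 0.036 (adjusted p = 0.294), and its other probe by -0.30 ± 0.032 (adjusted p = 2.02e-07).

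Genes of both subunits were among those called. Of 43 large subunit genes tested, 33 were called lower and 1 higher in A versus V (median -0.23), and of 25 small subunit genes, 21 lower and 1 higher (median -0.18). Grouped by origin, 9 of the 10 tested small subunit proteins without a bacterial counterpart were called lower (median -0.31), and 12 of 15 with one (median -0.17, with Mrps6 the 1 called higher). In the large subunit the counts were 14 of 17 lower without a bacterial counterpart (median -0.23) and 19 of 26 with one (median -0.22). Whether these classes differ from each other was not tested. Mrps18a and Mrps30, despite their names, are proteins of the large subunit and were counted there. Mrps18a and Mrps18b are related to bacterial S18, as described below, but were counted among the proteins without a bacterial counterpart.

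The mitochondrial ribosome genes were also lower in the sinoatrial node than in the ventricles. In SA versus V, 49 of the 68 genes were called lower and 1, Mrps6, higher, where 55.3% of all genes tested were called (30.7% higher and 24.6% lower). The median difference was -0.22, against 0.029 over all genes tested. For 38 genes all SA arrays lay below all ventricular arrays, against 14% of all genes, and for 1, Mrps6, all lay above, against 20.1%. With LV replicate 4 included, none of the 68 was called in limma (medians 0.034 and 0.180). A versus V and SA versus V share the ventricular arrays, so the calls in both are not independent. The share of all genes tested that was called lower in both was not counted. How far the joint counts that follow exceed such a share is therefore not known. Lower in both were 45 genes, 9 were called lower in A alone (Mrpl11, Mrpl2, Mrpl38, Mrpl50, Mrpl57, Mrps10, Mrps12, Mrps24 and Mrps5) and 4 in SA alone (Mrpl16, Mrpl23, Mrpl24 and Mrps15).

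In SA, Mrpl14 lay at 1.64, 1.76, 1.73 and 1.66, within its atrial range and below all ventricular arrays. Its difference from V was -0.63 ± 0.048 (adjusted p = 3.99e-09). Mrps35 lay at 1.81, 1.45, 1.68 and 1.85 in SA, a wider spread than in any other region, and differed by -0.46 ± 0.059 (adjusted p = 2.85e-06). Mrps21, the counterpart of bacterial S21, lay at 2.41, 2.58, 2.57 and 2.44 in SA, below its lowest ventricular value of 2.86, and fell by 0.44 ± 0.056 (adjusted p = 2.84e-06). Mrpl53 and Mrpl47, both of the large subunit, each fell by 0.42 (adjusted p = 6.95e-06 and 9.44e-06), with SA ranges of 2.39 to 2.60 and 1.37 to 1.62 against 2.75 to 3.09 and 1.78 to 2.07 over both ventricles.

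**Figure D3:**
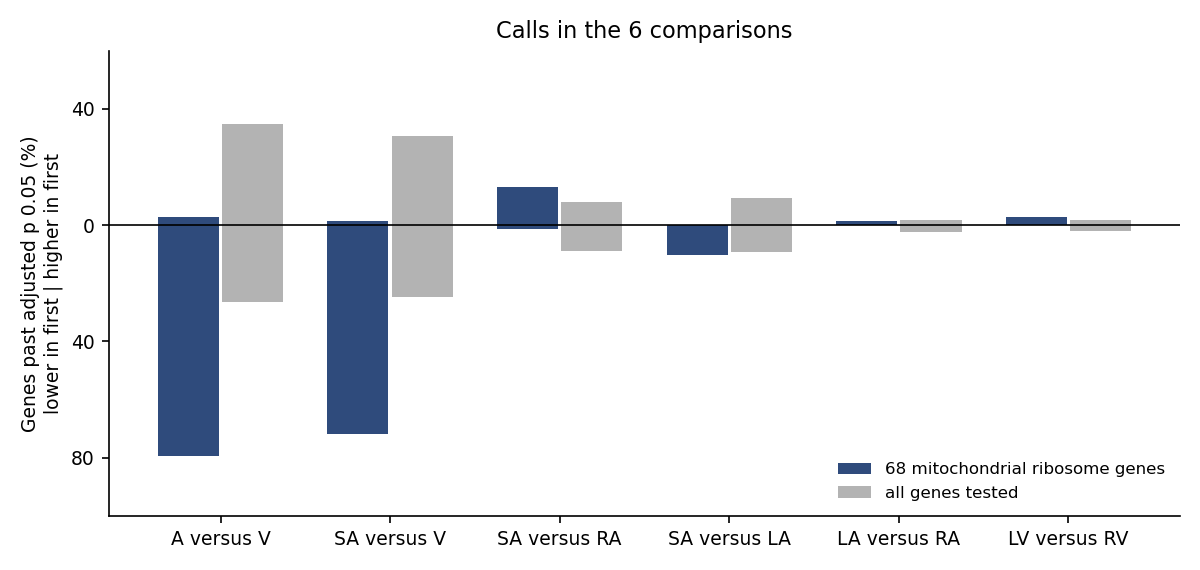
Share of genes called in each of the 6 comparisons, upwards for higher and downwards for lower in the first-named region, for the 68 mitochondrial ribosome genes and for all 6455 genes tested. Calls of the 68 genes lie almost wholly below 0 against the ventricles (79.4% in A versus V) and are few among LA, RA and SA and between LV and RV.

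Within the upper heart the differences were small. In SA versus RA, 9 genes were called higher and 1 lower (background 16.8%, with 7.92% higher and 8.86% lower), and the median was 0.043. For 10 genes all SA arrays lay above all RA arrays, against 9.93% of all genes. In SA versus LA, none was called higher and 7 lower (background 18.6%, with 9.26% higher and 9.30% lower), and the median was -0.049. All SA arrays lay below all LA arrays for 5 genes and above them for 1, against 9.56% and 9.96% of all genes. These 2 comparisons share the SA arrays. None of the 68 was called in either with LV replicate 4 included.

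The genes called higher in SA than in RA without overlap were led by Mrps30 of the large subunit. It lay at 2.25, 2.21, 2.29 and 2.32 in SA and at 2.05, 2.07, 2.07 and 2.09 in RA, and differed by 0.20 ± 0.044 (adjusted p = 0.00412). Mrpl50 (0.20 ± 0.052), Mrps12 (0.19 ± 0.053), Mrpl37 (0.19 ± 0.048), Mrps18b (0.19 ± 0.063) and Mrpl46 (0.18 ± 0.054) followed, with adjusted p between 0.00956 and 0.0467, and Mrps7 (0.16 ± 0.044, adjusted p = 0.0141) did not overlap either. Mrps12 is the counterpart of bacterial S12, part of the site where codons are read. The other probes of Mrpl37, Mrps18b and Mrps7 were not called. That of Mrpl37 differed by 0.035 (adjusted p = 0.710) and that of Mrps18b by -0.060 (adjusted p = 0.554). That of Mrps7 differed by 0.1325 (adjusted p = 0.163), in the direction of its main probe. The main probe of Mrps31 was also higher in SA than in RA (0.1725, adjusted p = 0.0217 in the fit of single probes). Its other tested probes differed by 0.10 (adjusted p = 0.15) and 0.0375 (adjusted p = 0.632), and were not called. The count was 5 or 6 in place of 10 without RA replicate 2, RA replicate 4, SA replicate 3 or SA replicate 4. Mrps6 was the gene called lower in SA than in RA (-0.23 ± 0.075, adjusted p = 0.0440), with ranges that overlapped (2.31 to 2.57 and 2.49 to 2.77), and no gene was called lower with no filter, with aligned medians, with a replicate block or in 9 of the 19 fits that each left out 1 array (LV replicate 2, RA replicates 1, 2 and 4, RV replicates 2 and 3, and SA replicates 1, 2 and 4).

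Lower in SA than in LA were Mrps6 (-0.37 ± 0.075, adjusted p = 0.00201), Mrpl42, Mrps18c, Mrpl53, Mrpl18, Mrpl4 and Mrps28. Mrpl18, which in the bacterial ribosome binds the 5S RNA, lay at 1.71, 1.69, 1.78 and 1.85 in SA and 1.89, 1.97, 2.03 and 1.97 in LA. All SA arrays were lower, and the difference was -0.21 ± 0.048 (adjusted p = 0.00518). Mrpl4 (-0.19 ± 0.050, adjusted p = 0.0125) and Mrpl53 (-0.21 ± 0.065, adjusted p = 0.0294) did not overlap either. The 7 calls became 4 without LA replicate 3 or SA replicate 1, and 12 without LA replicate 4, and 5 of the settings ended the call of Mrpl53.

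Left and right sides differed little. In LA versus RA 1 gene, Mrps25 of the small subunit, was called (higher in LA by 0.17 ± 0.047, adjusted p = 0.0449), where 4.09% of all genes tested were called (1.87% higher and 2.22% lower). It lay at 1.04, 0.84, 0.98 and 0.94 in LA and 0.77, 0.82, 0.70 and 0.82 in RA, so its groups were apart by 0.02, and 18 of 28 alternative settings ended the call, with adjusted p of 0.0151 to 0.146. The mean was nonetheless higher in LA for 65 of the 68 genes, with a median of 0.085 against 0 over all genes tested, and 8 genes did not overlap, all higher in LA (4.42% of all genes were so and 4.68% lower). Such small shifts in one direction over many genes of the same arrays are not independent of each other. The medians of the 68 genes per array were 1.890 to 2.015 in LA and 1.800 to 1.935 in RA, which overlap.

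In LV versus RV, Mrpl3 and Mrps18a were called higher in LV and none lower, where 3.73% of all genes tested were called (1.69% higher and 2.04% lower). All LV arrays lay above all RV arrays for 6 genes and below them for 5, against 8.75% and 9.23% of all genes. Mrpl3, in which human mutations cause a mitochondrial heart muscle disease, lay at 2.44, 2.46 and 2.56 in LV and 2.30, 2.16, 2.26 and 2.22 in RV. All LV arrays were higher, by 0.25 ± 0.049 (adjusted p = 0.0104). The second probe of Mrpl3 did not show it (-0.055 ± 0.060, adjusted p = 0.634), while in A versus V both probes fell alike (-0.21 and -0.22). The median of the 68 genes was 0.017, against -0.002 over all genes tested.

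Mrps15, the counterpart of bacterial S15, was the gene whose left to right difference was not the same in atria and ventricles. It lay at 1.17, 1.16, 0.92 and 0.84 in LA and 0.94, 0.92, 0.67 and 0.73 in RA, and at 0.98, 0.90 and 0.80 in LV and 1.14, 1.16, 1.10 and 1.37 in RV. It was higher on the left in the atria (0.21 ± 0.095, adjusted p = 0.291) and lower on the left in the ventricles (-0.30 ± 0.10, adjusted p = 0.105). The difference between these differences was 0.51 ± 0.14 (adjusted p = 0.0373), a test that called 6.21% of all genes (3.42% above 0 and 2.79% below), and 11 of 28 settings ended the call (adjusted p up to 0.0836), among them leaving out LV replicate 3 (0.0662). Leaving out LV replicates 3 and 4 is the same fit, and the 11 count it under both names.

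The Mrps18 family allowed paralogues to be compared, each by its own differences. Mammals have 3 genes related to bacterial S18. The product of Mrps18c sits where S18 does, that of Mrps18b elsewhere in the small subunit, and that of Mrps18a in the large subunit. Mrps18a lay at 1.65, 1.56, 1.64 and 1.61 in LA, 1.69, 1.55, 1.47 and 1.51 in RA, 1.65, 1.51, 1.66 and 1.67 in SA, 2.28, 2.17 and 2.23 in LV and 1.96, 1.93, 2.06 and 2.07 in RV. The atrial and SA ranges overlapped, RV lay above them and LV above RV. It differed by -0.53 ± 0.038 in A versus V (adjusted p = 1e-09), by -0.49 ± 0.046 in SA versus V (adjusted p = 6.39e-08) and by 0.22 ± 0.056 in LV versus RV (adjusted p = 0.0350, lost in 8 of 28 settings). These 8 also count the fit without LV replicate 3 under both names.

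Mrps18b lay at 1.47, 1.44, 1.5 and 1.39 in LA, 1.37, 1.29, 1.36 and 1.29 in RA, 1.51, 1.48, 1.5 and 1.57 in SA, 2.07, 2.03 and 1.71 in LV and 1.67, 1.77, 1.84 and 1.84 in RV. RA was lowest, LV and RV were highest, and LV replicate 3 was the low one of its region. The difference was -0.47 ± 0.046 in A versus V (adjusted p = 6.49e-08) and -0.34 ± 0.056 in SA versus V (adjusted p = 4.67e-05). Its call in SA versus RA (adjusted p = 0.0467) was lost in 20 of 28 settings. In LV versus RV it was not called (0.16 ± 0.068, adjusted p = 0.194), but was called without LV replicate 3 (adjusted p = 0.0148).

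Mrps18c changed least of the 3 in A versus V, at -0.14 ± 0.056 (adjusted p = 0.0321, lost in 6 of 28 settings), and these sizes were not tested against each other. It lay at 1.94, 1.96, 1.73 and 1.67 in LA, 1.69, 1.65, 1.57 and 1.71 in RA, 1.67, 1.67, 1.45 and 1.61 in SA, 1.85, 1.79 and 1.74 in LV and 1.89, 1.96, 1.86 and 2.19 in RV. LA overlapped both ventricles, and SA was below all ventricular arrays. It was lower in SA than in V (-0.28 ± 0.068, adjusted p = 0.00165) and than in LA (-0.23 ± 0.076, adjusted p = 0.0457, lost in 11 of 28 settings).

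**Figure D4:**
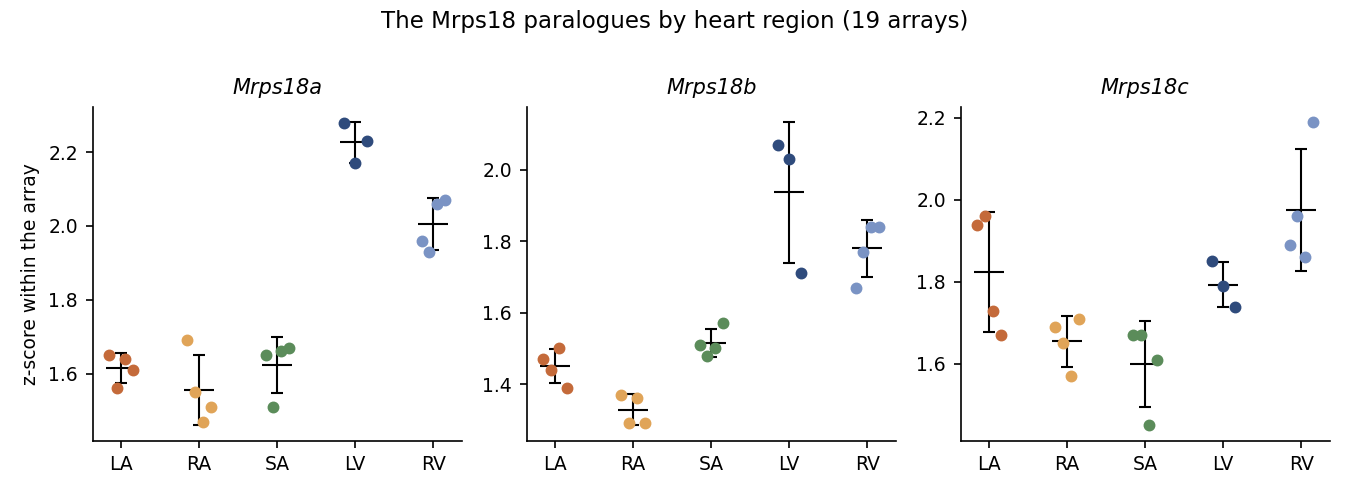
Values of Mrps18a, Mrps18b and Mrps18c in each array by region (z-score, with mean and SD, n = 4 and n = 3 in LV). For Mrps18a and Mrps18b both ventricles lie above the other regions, and for Mrps18c the LA values of 1.67 to 1.96 overlap those of LV and RV.

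Across the 5 regions, 55 of the 68 genes had an adjusted p under 0.05 in the F test, against 65.9% of all genes tested. The region with the highest mean was LV for 38 genes, RV for 23, LA for 6, SA for 1 and RA for none. The lowest mean was in RA for 40 genes, SA for 21, LA for 3, LV for 3 and RV for 1. Both ventricular means were above the other 3 for 53 genes and below them for 3, and these orders were not counted over all genes tested. Neighbours in this order, LV and RV, and SA with LA or RA, rarely differed beyond their spread, as the counts of calls above give. None of the 6 comparisons was called for Mrpl13, Mrpl17, Mrpl20, Mrpl27, Mrpl48, Mrpl49, Mrps11 and Mrps26.

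Several probes measured 22 of the 76 genes, and 19 of these had at least 2 probes above the filter. In 16 of the 19 all such probes were lower in A than in V, and in 11 at least 2 probes were called lower. The probes disagreed in sign on a called difference for Mrpl3, Mrps10, Mrps18b, Mrps25 and Mrps26. Mrps10, a small subunit protein, was called lower in A versus V by its main probe (-0.13 ± 0.050, adjusted p = 0.0391 in the fit of single probes), while its second gave 0.10 ± 0.12 (adjusted p = 0.498). The second probe of Mrps10 lay at 0.83 and 0.79 in LV replicates 1 and 2 and at -0.38 in LV replicate 3, without which its difference was -0.0975. The call of the main probe was lost in 9 of 28 settings. Another probe of Mrps25 gave -0.26 ± 0.063 in LV versus RV (adjusted p = 0.0310), where the main one gave 0.017. The second probe of Mrpl48 lay at 2.20 and 2.23 in LV replicates 1 and 2 and at -1.55 in LV replicate 3, and at 2.09 to 2.33 in all 16 arrays of the other regions.

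The other 8 genes had a mean at or below 0 and were not tested with the rest. Just inside the limit were Mrpl57 (0.044), Mrps2 (0.39) and Mrpl35 (0.43), and just outside were Mrpl39 (-0.078), Mrpl15 (-0.35) and Mrpl45 (-0.41). The remaining ones were Mrps14, Mrps36, Mrpl21, Mrpl19 and Mrpl32. In a fit without a filter, over all 16593 genes, Mrpl45 (-0.35 ± 0.042, adjusted p = 1.09e-06), Mrpl39 (-0.25 ± 0.078, adjusted p = 0.0131), Mrps36 (-0.12 ± 0.037, adjusted p = 0.0116) and Mrpl21 (-0.11 ± 0.028, adjusted p = 0.00403) were called lower in A than in V, and none of the 8 higher. That fit called 7262 of the 16593 genes in A versus V, in either direction, so calls were common in it. Mrpl45 was also called lower in SA than in V (-0.24 ± 0.051, adjusted p = 0.00118), where 5574 of the 16593 genes were called in either direction. Mrps36 is now known as a subunit of a dehydrogenase complex of the citric acid cycle and not of the ribosome.

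Genes that work with the mitochondrial ribosome were described by lists. Over all genes tested, 26.6% were called lower and 34.6% higher in A versus V, and 24.6% and 30.7% in SA versus V. The counts of all lists below stand beside these shares. Of 3 tested ribosome proteins with other symbols, Ptcd3 (-0.47 ± 0.056, adjusted p = 9.84e-07), Chchd1 (-0.19) and Dap3 (-0.18) were all called lower in A than in V. Of 8 tested translation factors, 7 were called lower and none higher (median -0.30). Tufm, the elongation factor that brings the loaded tRNA, ranged from 2.75 to 2.98 in the atria and from 3.18 to 3.72 in the ventricles (-0.54 ± 0.055, adjusted p = 1.05e-07). The elongation factor Gfm1 fell by 0.48 and Gfm2, which acts in recycling of the ribosome, fell by 0.50. Gfm2 was higher in SA than in RA (0.27 ± 0.060, adjusted p = 0.00408) and than in LA (0.27 ± 0.060, adjusted p = 0.00378).

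Of 17 tested genes for assembly of the ribosome, 10 were called lower and 2 higher in A versus V (median -0.15), led by the ribosomal RNA methylase Mrm3 (-0.58 ± 0.044, adjusted p = 2.24e-09) and C1qbp (-0.48 ± 0.043). Of 7 synthetases that load mitochondrial tRNAs, 5 were lower and none higher. Of 11 genes for mitochondrial DNA and its transcription, 9 were lower and none higher. In SA versus V the counts were 3 lower and none higher for the ribosome proteins with other symbols, 7 and none for the translation factors, 7 and 3 for assembly (median -0.073), 2 and 1 for the synthetases (median -0.14) and 8 and 1 for mitochondrial DNA and its transcription. The synthetases called lower in SA versus V made up 28.6% of those tested, near the 24.6% of all genes tested. Lrpprc, which stabilises mitochondrial messenger RNAs, ranged from 0.84 to 1.09 in the atria, from 0.91 to 1.05 in SA and from 1.59 to 1.84 in the ventricles. Its difference was -0.74 ± 0.042 in A versus V (adjusted p = 3.63e-11) and -0.69 ± 0.051 in SA versus V (adjusted p = 2.29e-09).

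Of 5 tested regulators of mitochondrial genes, 3 were lower and none higher in A versus V, and 3 lower and 1 higher in SA versus V. The 1 higher was Nrf1, at 0.75 to 0.79 in SA, 0.53 to 0.65 in LV and 0.44 to 0.64 in RV. Nrf1 was also higher in SA than in LA (0.155 ± 0.051, adjusted p = 0.0419). The coactivator Ppargc1b ranged from 0.95 to 1.35 in LA, 0.87 to 1.32 in RA, 1.32 to 1.48 in SA, 1.59 to 1.93 in LV and 1.36 to 1.77 in RV, and fell by 0.56 ± 0.078 in A versus V (adjusted p = 5.29e-06). In SA it was lower than in V (-0.29 ± 0.095, adjusted p = 0.0134) but higher than in RA (0.33 ± 0.11, adjusted p = 0.0393). Its relative Ppargc1a was lowest in SA, at 1.21 to 1.5 against 1.64 to 2.11 in LA and 1.67 to 1.90 in RA. It was lower in SA than in RA (-0.37 ± 0.088, adjusted p = 0.00603), LA (-0.40 ± 0.088, adjusted p = 0.00341) and V (-0.56 ± 0.079, adjusted p = 8.77e-06).

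The list of nuclear genes for the respiratory chain and ATP synthase was taken by symbol. It holds subunits, which join those made by the mitochondrial ribosome, and also genes that act in assembly, such as Cox17 and Cox20. Of its 81 tested genes, 64 were called lower and 2 higher in A versus V (median -0.39), and 65 lower and 1 higher in SA versus V (median -0.40). Of 56 tested proteins of the cytosolic ribosome, which makes all other proteins, 10 were lower and 8 higher in A versus V (median -0.058). These were 17.9% and 14.3%, against 26.6% and 34.6% of all genes tested. In SA versus V, 20 were lower and 3 higher (median -0.15), or 35.7% and 5.36%, against 24.6% and 30.7% of all genes tested. The lowest was Rpl3l, a muscle form of a cytosolic ribosome protein (-1.63 ± 0.065, adjusted p = 2.11e-13), while its relative Rpl3 rose by 0.46 ± 0.073 (adjusted p = 2.29e-05). The median level of the 68 mitochondrial ribosome genes was 1.800 to 2.015 in the 8 atrial arrays, 1.855 to 1.930 in SA and 2.090 to 2.235 in the 7 ventricular arrays, which did not overlap. The median of the respiratory chain list also did not overlap, with 3.08 to 3.47 in LA, RA and SA and 3.65 to 3.96 in LV and RV. That of the cytosolic ribosome did, with 2.855 to 3.29 and 3.15 to 3.315.

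**Figure D5:**
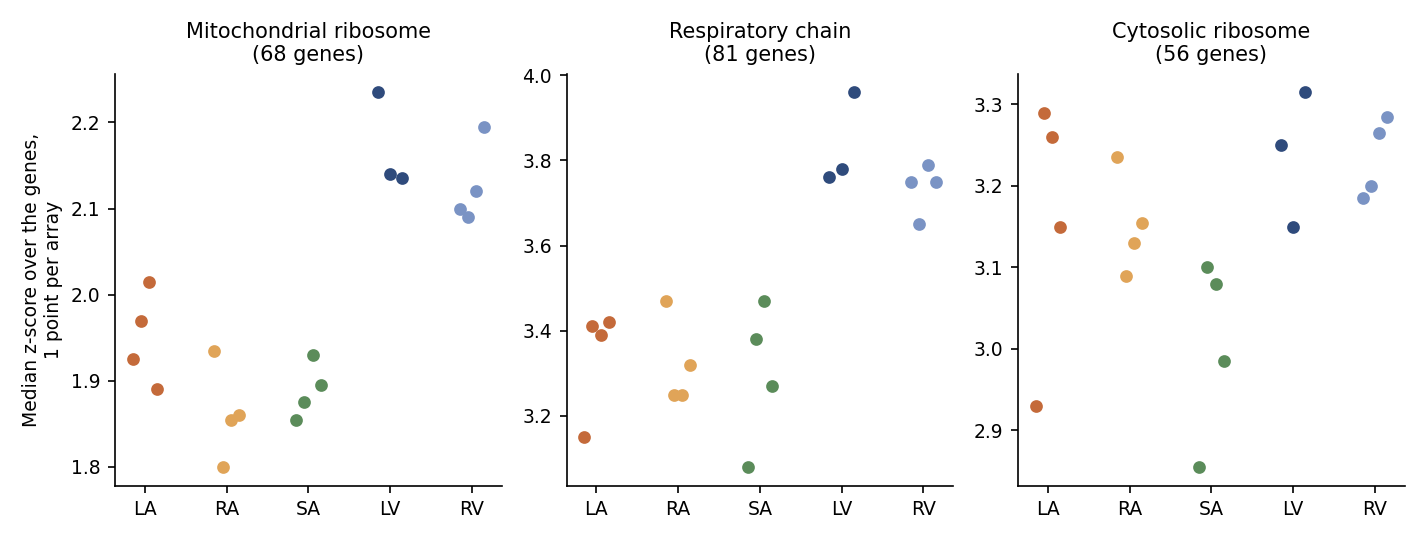
Median z-score of the mitochondrial ribosome genes, the respiratory chain list and cytosolic ribosome proteins in each of 19 arrays, by region. The ventricular arrays lie above the others in the first panel (from 2.090) and in the second (from 3.65), and overlap them in the third.

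Markers of cell types were described in the same way, and their directions differed between types. Beside them, 26.6% of all genes tested were called lower and 34.6% higher in A versus V, and 24.6% and 30.7% in SA versus V. All 6 tested cardiomyocyte markers were called lower in A than in V (median -0.35), and 3 of the 6 were in SA versus V. Their mean level was 2.58 to 3.10 in LA, 2.87 to 3.11 in RA, 2.59 to 3.14 in SA, 3.36 to 3.57 in LV and 3.13 to 3.33 in RV. Of 6 tested fibroblast markers, 5 were higher in A than in V (median 0.45), with mean levels of the 7 on the array of 1.14 to 1.32 in LA, 1.15 to 1.52 in RA, 1.23 to 1.40 in SA, 0.27 to 0.92 in LV and 0.92 to 1.06 in RV, and Postn below 0 in all 19 arrays. The LV low came from LV replicate 3, and the other LV arrays lay at 0.916 and 0.894. In that array Dcn read -1.09, against 3.71 and 3.61 in LV replicates 1 and 2, and the endothelial gene Tek read -1.44, against 1.42 and 1.63. All 3 tested mesothelial markers were higher in A than in V, and both tested red blood cell markers were lower. Both tested smooth muscle markers were lower in A than in V (Myh11 by -0.66 and Acta2 by -0.36) and higher in SA than in V (Myh11 by 0.38 and Acta2 by 0.66). Of 4 tested endothelial markers, 2 were higher and 1 lower in A versus V, and 3 were lower in SA versus V. Of 2 tested neuron markers, 1 was higher in A versus V and both were in SA versus V. Both tested adipocyte markers were higher in A than in V (Scd1 by 0.90 and Adipoq by 0.57) and in SA than in V (by 2.68 and 2.74). In SA the mean of the 7 adipocyte markers was 0.52 to 1.03, against -0.55 to -0.18 in all other arrays, with Fabp4 below 0 in all 19 arrays. Of the Schwann cell, leukocyte and lung markers none passed the filter, though the airway gene Scgb1a1 reached 3.97 in 1 array and raised the mean of the 3 lung markers to 0.887 in SA replicate 2. The part of these markers in the result was not tested.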

How the data were processed

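The 20 Illumina arrays were summarised with BeadStudio and GenomeStudio 2011.1 according to the submitters' processing notes. The authors deposited a z-score per probe (mean 0 and SD 1 within each array) beside detection p-values, which were not used, and the methods describe a log2 transform after adding 1 and alignment of array medians for the study's own analysis. The medians of the deposited scores were not equal (-0.50 to -0.46 in the 19 arrays used), and whether the deposited scores were made from log2 values is not given in the sources used here. Of 25697 probes, 23978 named 1 gene, and 23962 of these were matched by identifier. Each of 16593 genes was represented by its brightest probe on average, judged without LV replicate 4 (19 arrays), and genes with a mean above 0 (6455) were tested.

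One mean per region was fitted in limma 3.58.1 (R 4.3.3) with moderated variances that follow the mean level, and p-values were adjusted by Benjamini-Hochberg over all genes tested. On simulated data for A versus V (6455 genes, 200 of them changed), 60% of changes of 0.2 and 97% of changes of 0.5 were recovered, with 4 false calls. Few genes were changed there and the noise was drawn independently, while 61.2% of genes were called in the data. The recovered shares and false calls therefore need not hold for the data. The number of arrays limits the precision. The genes and lists were chosen with earlier results of these data known.

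Genes named in the text were, per comparison and direction, the 6 largest differences among called genes without overlap, the 6 largest F values, the 3 largest interactions, the Mrps18 genes, genes whose probes disagreed in the sign of a called difference, those below the filter, and up to 3 called genes per list. Other genes are named to complete a count. Alternatives were other arrays, filters, scalings, probe choices, a fit with no trend, a replicate block and leaving out each array. Leaving out LV replicate 3 and leaving out LV replicates 3 and 4 were the same fit, since LV replicate 4 was already out. The 28 settings hold that fit under both names. A fit of single probes was added after the data were seen.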

Additional observations from a re-analysis of the deposited data

Results flagged for a closer look

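Chance sets about 1 in 20 groups apart in the way described here, and 93 groups of 4 arrays were examined. Mrpl47 was 1.43 in LA replicate 4 and 1.66 to 1.69 in the other LA arrays. Mrpl53 was 2.75 in RV replicate 2 and 2.93 to 2.95 in the other RV arrays. Mrps18a was 1.51 in SA replicate 2 and 1.65 to 1.67 in the other SA arrays. The median of the 68 mitochondrial ribosome genes was -0.275 in LV replicate 4 and 2.135 to 2.235 in the other LV arrays. Mrps15 differed between left and right by 0.2075 in the atria and by -0.2992 in the ventricles, and the test of the difference between them gave 0.5067 (adjusted p = 0.0373).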

How the results depend on the processing

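The number of arrays limits the precision of small differences. With all 20 arrays, 1 of the 68 genes was called in A versus V (median 0.0388) and 0 in SA versus V (median 0.0344), SA versus RA, SA versus LA, LA versus RA, LV versus RV (median -0.5462), the left-right interaction and the F test. In that fit 6 named differences changed sign: in LV versus RV, Mrpl3 was -0.445, Mrps18a -0.4325, Mrps18b -0.435 and Mrps25 -0.3575, and in A versus V, Mrps18c was 0.125 and Mrps10 0.0562. With no filter, the counts were 5 in SA versus RA, 3 in SA versus LA, 0 in LA versus RA, 1 in LV versus RV and 0 in the interaction. Quantile normalization gave 15 in SA versus LA, 4 in LA versus RA and 4 in the interaction. Aligned medians gave 1 in LV versus RV. The mean of all probes gave 1 in LV versus RV and 5 in the interaction, and turned Mrps18b in SA versus LA (-0.0488), Mrps25 in LV versus RV (-0.0989) and Mrps26 in SA versus V (-0.1635). Without LV replicates 3 and 4 the interaction had 0. Leaving out 1 array gave 51 to 57 calls in A versus V, 46 to 52 in SA versus V, 5 to 11 in SA versus RA, 4 to 12 in SA versus LA, 0 to 2 in LA versus RA, 1 to 2 in LV versus RV, 0 to 5 in the interaction and 52 to 56 in the F test, and differences of -0.0108 to 0.045 for Mrps18a in SA versus LA and of -0.0004 to 0.0596 for Mrps26 in SA versus V. Apart from the fit with all 20 arrays, the counts in A versus V and SA versus V stayed within 1.5 times the reported ones. The causes were not tested.

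With the replicate number as a replicate block, 54 genes were called in A versus V, 50 in SA versus V and 0 in LA versus RA. The description labels carry the same numbers in LA and RA and in LV and RV, and do not say whether these arrays share an animal. Deviations of same-numbered arrays correlated at -0.299, 0.241, 0.398 and 0.427 between LA and RA and at 0.206, 0.168 and 0.014 between LV and RV, so not every pair deviated together and shared animals remain possible. With that number as a random replicate block, the counts were as reported, with 56 in A versus V and 50 in SA versus V.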
